A study of Mus musculus with 6 samples.

Results

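The 10 genes described here carry out antigen presentation by major histocompatibility complex (MHC) class II in the mouse. They are H2-Aa, H2-Ab1 and H2-Eb1, which encode classical class II chains, H2-DMa, H2-DMb1 and H2-DMb2, which encode the peptide exchange factor H2-DM, H2-Oa and H2-Ob, which encode its modulator H2-DO, Cd74, which encodes the invariant chain, and Ciita, the class II transactivator. They were chosen by symbol, with earlier results of these data known, and found in the files, 10 of 21899 listed genes. RNA was sequenced from the livers of 6 C57BL/6 mice, an inbred strain, 3 labelled CDAA and 3 labelled CSAA, which is the control feed. In this field CDAA stands for a choline-deficient and CSAA for a choline-supplemented amino acid-defined diet. All mice entered at 6 weeks of age and had 1 week to acclimatise. Those given CDAA were then moved to it over 1 week on mixed feed, and livers of both groups were taken at week 6 after that. No genetic change or drug is named for either group. No transcript in the files reports which feed a mouse ate, so the groups rest on the labels. CDAA feed is commonly given to mice to produce steatohepatitis with inflammation and fibrosis. In these libraries Col1a1, a fibrillar collagen gene of scar tissue, was at 37.5, 16.5 and 24.9 CPM in CDAA and at 171.7, 90.4 and 115.8 CPM in CSAA (log2 -2.26 ± 0.33, edgeR adjusted p = 0.00483). That direction, and that of the class II and leukocyte genes below, is opposite to the common use of the feed. Whether the labels of the groups were exchanged could not be tested with these files, and an exchange would turn round every sign given here.

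Class II molecules are pairs of an alpha and a beta chain that display peptides from endosomes to CD4 T cells. The invariant chain holds a new pair closed on its way to the endosome, cathepsin S trims it there, H2-DM then trades the remaining fragment for a peptide, and H2-DO restrains H2-DM. Transcription of the pathway depends on CIITA, which does not bind DNA but is held at class II promoters by the RFX, NF-Y and CREB factors. In liver these molecules are mainly found on dendritic cells, B cells, Kupffer cells and other macrophages. C57BL/6 mice lack a working alpha chain gene for the I-E molecule, so the beta chain of H2-Eb1 has no partner of its own isotype in this strain.

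The libraries held 14580676 to 15291743 reads over genes in CDAA and 15459290 to 17367173 in CSAA, and 3 reads corresponded to between 0.147 and 0.228 CPM (reads scaled to library size with edgeR's TMM factors). Albumin and the other hepatocyte markers were abundant in all 6 libraries, with a summed level of 104320 to 115910 CPM in CDAA and 68734 to 92293 CPM in CSAA over 9 genes. CDAA replicate 1 stood apart. Its summed level of 10 pancreatic acinar genes was 1903 CPM, and no other library exceeded 14.6 CPM. For 8 genes of striated muscle the sum was 239.5 CPM there, with a maximum of 1.03 CPM elsewhere. Results on the class II genes are therefore also given without that library. The replicates are separate mice per the labels.

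The class II genes were lower in the livers labelled CDAA. Of the 10 genes 9 passed the filter on low counts. Of these 7 fell in CDAA at an adjusted p under 0.05 (edgeR quasi-likelihood test, adjusted over all 12845 genes tested), 0 rose, and H2-Ob and H2-DMb2 did not pass. Over all genes tested 14.8% were called, 10.5% lower and 4.25% higher. The 7 log2 fold changes lay between -2.22 and -1.83, or roughly a 4-fold lower level, and the median over the 9 tested genes was -1.98, against 0.00 over all genes tested. In the same 7 genes every CDAA library was below every CSAA library, a pattern seen in 20.4% of all genes tested. Without CDAA replicate 1, and without each of the other libraries in turn, the same 7 genes were called. These are bulk livers, so fewer class II-positive cells and less class II RNA per cell cannot be told apart.

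**Figure D1:**
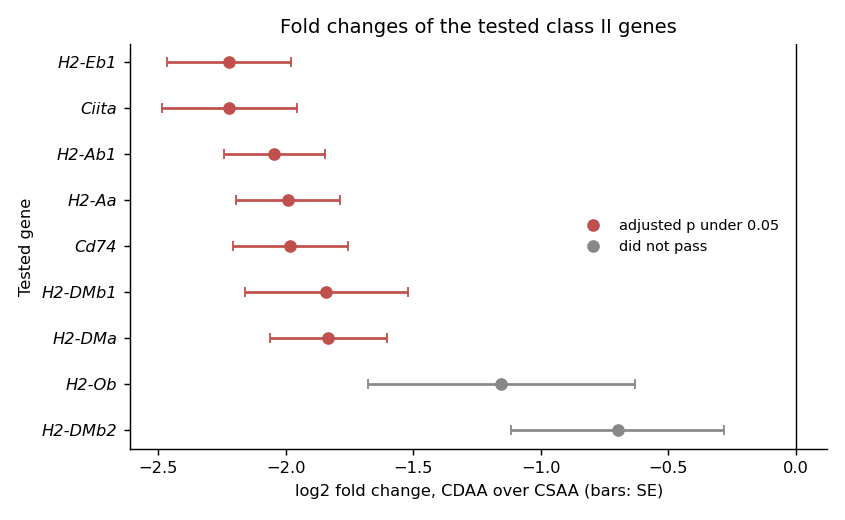
log2 fold change, CDAA over CSAA, of the 9 tested class II presentation genes, with standard errors as bars. The 7 genes in red passed and lie between -2.22 and -1.83, while H2-Ob (-1.15) and H2-DMb2 (-0.70), in grey, did not pass.

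Among the classical chains, H2-Ab1, the beta chain of I-A, was at 31.0, 26.7 and 46.3 CPM in CDAA replicates 1 to 3 and at 146.1, 153.2 and 130.1 CPM in CSAA replicates 1 to 3. Its log2 fold change was -2.04 ± 0.20 (SE, edgeR adjusted p = 0.00155). H2-Aa, the alpha chain of the same molecule, was at 27.5, 26.0 and 43.4 CPM in CDAA and at 126.4, 144.4 and 114.9 CPM in CSAA (log2 -1.99 ± 0.20, edgeR adjusted p = 0.00155). In both genes CDAA replicate 3 was the highest of its group and still lay under the lowest CSAA library. H2-Eb1, the I-E beta chain, was at 22.8, 20.3 and 38.6 CPM in CDAA and at 137.4, 136.6 and 107.6 CPM in CSAA, and fell too (log2 -2.22 ± 0.24, edgeR adjusted p = 0.00178). Cd74, whose product escorts all of these chains, was at 52.9, 47.7 and 87.0 CPM in CDAA and at 253.4, 263.6 and 224.0 CPM in CSAA (log2 -1.98 ± 0.22, edgeR adjusted p = 0.00197). CDAA replicate 3 was thus again the highest of its group, as it was for all 10 genes, and the groups did not overlap.

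In the files H2-Ab1 (ENSMUSG00000073421) lies on chromosome 17 from 34476663 to 34488393, H2-Aa (ENSMUSG00000036594) on chromosome 17 from 34501718 to 34506797 and H2-Eb1 (ENSMUSG00000060586) on chromosome 17 from 34524841 to 34535648. Cd74 (ENSMUSG00000024610) lies on chromosome 18 from 60936920 to 60945724 and Ciita (ENSMUSG00000022504) on chromosome 16 from 10297923 to 10346282. The other 5 genes are also on chromosome 17. The file headers name no genome build for these positions.

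Ciita, the transactivator on which the chain genes depend, was at 2.36, 3.26 and 5.04 CPM in CDAA and at 18.6, 15.6 and 15.7 CPM in CSAA. It had a log2 value of -2.22 ± 0.27 (edgeR adjusted p = 0.00244), close to those of the chains. CDAA held 146 reads of Ciita in all, CSAA 924. The deposited values are per gene, so its alternative promoters, used by different cell types, are not told apart.

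Of the 3 genes of the peptide exchange factor 2 passed. H2-DMa, its alpha chain, was at 2.89, 3.48 and 5.11 CPM in CDAA and at 14.4, 13.1 and 13.5 CPM in CSAA (log2 -1.83 ± 0.23, edgeR adjusted p = 0.00275). H2-DMb1, a beta chain, was at 2.74, 3.26 and 6.82 CPM in CDAA and at 15.4, 16.6 and 14.2 CPM in CSAA (log2 -1.84 ± 0.32, edgeR adjusted p = 0.00955). Both fell, with no overlap between the groups. H2-DMb2, the second beta chain gene, was at 1.29, 0.888 and 2.56 CPM in CDAA and at 2.90, 2.40 and 2.42 CPM in CSAA, and CDAA replicate 3 lay above both lower CSAA libraries. Its log2 fold change of -0.70 ± 0.42 did not pass (edgeR adjusted p = 0.302).

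The position of H2-DMa in the files (chromosome 17, 34338515 to 34358075, plus strand) overlaps that of Brd2 (34330997 to 34341608, minus strand), a chromatin reader gene at 142.3 CPM on average in CDAA and 151.9 CPM in CSAA. The strand setting of the counting is not given in the sources used here, so reads of Brd2 in the overlap could be counted for H2-DMa. The log2 value of Brd2 itself was -0.09 ± 0.15 (edgeR adjusted p = 0.709). The beta chain genes are near copies. Of the 50-base stretches in annotated H2-DMb1 transcripts (GENCODE M21) 27.2% also occur in H2-DMb2, and of those of H2-DMb2 21.2% occur in H2-DMb1. At 100 bases the shares were 13.7% and 10.3%. Reads from these stretches could have been split, lost or counted for either gene, so the values of both are uncertain to that extent. No other pair among the 45 pairs of the 10 genes shared a stretch of either length.

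The genes of the modulator H2-DO, which is made mainly by B cells, had few reads. H2-Ob, its beta chain, was at 0.608, 2.00 and 2.70 CPM in CDAA and at 5.75, 2.45 and 3.66 CPM in CSAA. CDAA replicate 3 lay above CSAA replicate 2, and the log2 fold change of -1.15 ± 0.52 did not pass (edgeR adjusted p = 0.180). H2-Oa, its alpha chain, had 3, 0 and 4 reads in CDAA and 9, 2 and 9 reads in CSAA, too few to enter the test. Its rate of reads in CDAA was 0.474 of that in CSAA over the summed libraries, with an exact 95% counting interval of 0.170 to 1.17 that covers counting error only. For CDAA replicate 2 the absence of reads allows a level of up to 0.222 CPM. When genes with at least 1 read in any library were tested, H2-Oa was at -1.06 ± 1.12 on the log2 scale and did not pass (edgeR adjusted p = 0.596).

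Set side by side per length, in the FPKM the authors deposited (reads scaled to gene length and library size, without TMM factors), the genes kept nearly the same order in both diets. Cd74 came first, with 34.0 ± 12.6 FPKM in CDAA and 162.8 ± 20.7 FPKM in CSAA (mean ± SD, n = 3 each). H2-Eb1 followed, with 12.8 ± 5.06 FPKM in CDAA and 72.6 ± 13.2 FPKM in CSAA. H2-Ab1 had 12.3 ± 4.03 FPKM in CDAA and 61.7 ± 7.70 FPKM in CSAA, and within each diet its range overlapped that of H2-Eb1. Next came H2-Aa, at 7.76 ± 2.55 FPKM in CDAA and 37.4 ± 5.29 FPKM in CSAA. H2-DMb1 (2.32 ± 1.28 FPKM in CDAA and 10.1 ± 1.16 FPKM in CSAA) and H2-DMa (1.01 ± 0.33 FPKM in CDAA and 4.39 ± 0.46 FPKM in CSAA) came next.

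Among the last 4 genes, Ciita averaged 0.340 ± 0.140 FPKM in CDAA and 1.93 ± 0.306 FPKM in CSAA, and H2-DMb2 averaged 0.828 ± 0.481 FPKM in CDAA and 1.63 ± 0.272 FPKM in CSAA. These genes changed places, with H2-DMb2 above Ciita in CDAA and below it in CSAA, but their ranges overlapped in both diets. H2-Ob averaged 0.300 ± 0.185 FPKM in CDAA and 0.821 ± 0.388 FPKM in CSAA. H2-Oa was last, between 0 and 0.189 FPKM in CDAA and between 0.0832 and 0.414 FPKM in CSAA.

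**Figure D2:**
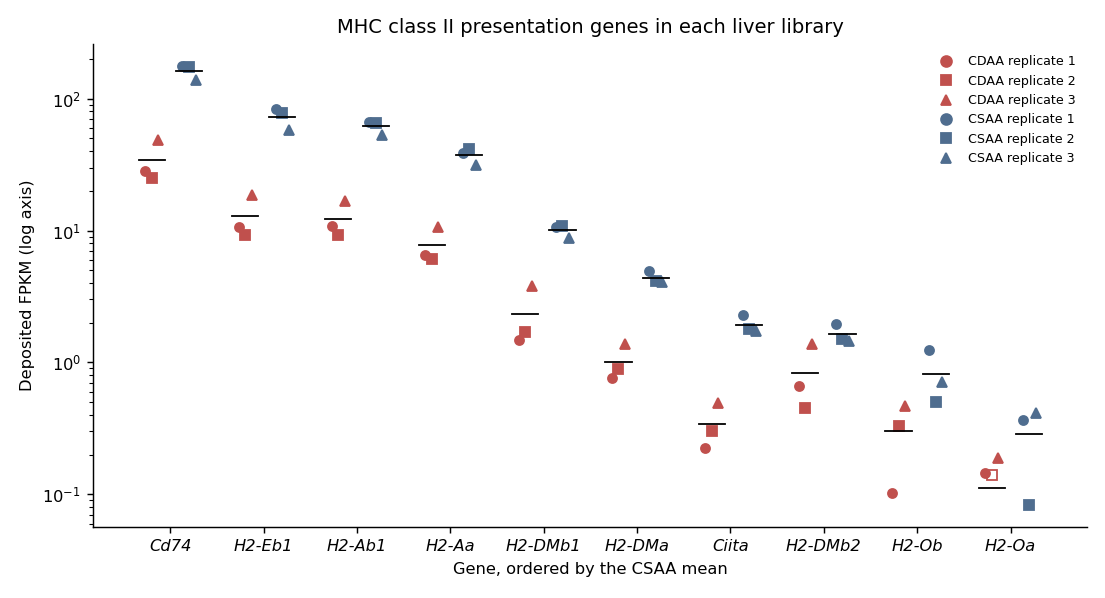
Deposited FPKM of the 10 class II presentation genes in each library, on a log axis, CDAA in red and CSAA in blue, with horizontal lines at the group means. An open symbol marks a library with no read, drawn at the level of 3 reads, and the libraries do not overlap between the diets for Cd74, H2-Eb1, H2-Ab1, H2-Aa, H2-DMb1, H2-DMa and Ciita.

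Ratios between partner genes were mostly alike in range in the diets. The H2-Aa level per H2-Ab1 level was 0.600, 0.657 and 0.634 in CDAA and 0.585, 0.637 and 0.597 in CSAA, on deposited FPKM (exact two-sided permutation p = 0.4). Cd74 per H2-Ab1 was 2.61, 2.73 and 2.87 in CDAA and 2.65, 2.63 and 2.63 in CSAA (exact permutation p = 0.4). In both the groups overlapped. The ratios of H2-DMa to H2-DMb1, H2-DMa to H2-Ab1, H2-Ob to H2-DMa, H2-Eb1 to H2-Ab1 and Ciita to H2-Ab1 also overlapped between the diets. A ratio that did not overlap was that of the near copies. H2-DMb1 per H2-DMb2 was 2.20, 3.81 and 2.77 in CDAA and 5.51, 7.18 and 6.08 in CSAA, a log2 difference of -1.12 (p = 0.1 by exact permutation). No smaller p can come from 3 libraries per diet, and adjustment over the 10 ratios compared gave 0.333. A missed threshold does not show that the other ratios were equal. How often ratios of other genes lack overlap was not computed.

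Class I genes were set beside class II in the same way. H2-K1 encodes a classical class I heavy chain, and H2-Ab1 per H2-K1 was 0.0274, 0.0243 and 0.0362 in CDAA and 0.109, 0.112 and 0.0860 in CSAA (log2 difference -1.81, exact permutation p = 0.1). Ciita per Nlrc5, which is the corresponding transactivator of class I genes, was 0.0509, 0.0782 and 0.0977 in CDAA and 0.322, 0.231 and 0.231 in CSAA (log2 difference -1.82, exact permutation p = 0.1). Neither ratio overlapped between the diets, and for both the exact permutation p adjusted over the 10 ratios was 0.333. H2-K1 (log2 -0.27) and Nlrc5 (log2 -0.47) moved less than H2-Ab1 and Ciita, so these ratios largely restate the falls of those 2 genes. The share of all genes without overlap on these scales was not computed. Of the 7 class I genes listed, 4 fell and 3 did not pass, with a median log2 fold change of -0.48. H2-D1, a class I heavy chain, had a log2 value of -0.73 ± 0.13 (edgeR adjusted p = 0.0109), and Tapbp, the peptide loading factor tapasin, a log2 value of -0.55 ± 0.12 (edgeR adjusted p = 0.0205). H2-D1 was lost when CSAA replicate 1 was left out. Tapbp was lost in every fit that left out 1 library except that without CDAA replicate 3.

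The class I genes Psmb9, Tap1, Psmb8 and Tap2 lie between H2-DMb1 and H2-Ob on chromosome 17, inside the block of class II genes. Tap1 and Tap2 encode the peptide transporter of class I and Psmb8 and Psmb9 immunoproteasome subunits. Their log2 fold changes were -0.77 ± 0.21 for Psmb9 (edgeR adjusted p = 0.0452), -0.58 ± 0.13 for Tap1 (edgeR adjusted p = 0.0209), -0.47 ± 0.26 for Psmb8 (edgeR adjusted p = 0.261) and -0.48 ± 0.14 for Tap2 (edgeR adjusted p = 0.0530). Psmb9 was lost when any library other than CDAA replicate 2 was left out, or with the replicate number as a block. Tap1 was lost when CDAA replicate 1 or any single CSAA library was left out. Psmb9 and Tap1 overlap by position in the files, on opposite strands. Of the 13 region neighbours in the files, 9 were tested, 2 fell, 0 rose and the median log2 fold change was -0.09. H2-Eb2, a class II beta chain gene beyond H2-Eb1 that is not among the 10, was too low to be tested. It had 1, 3 and 0 reads in CDAA and 40, 8 and 22 reads in CSAA.

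**Figure D3:**
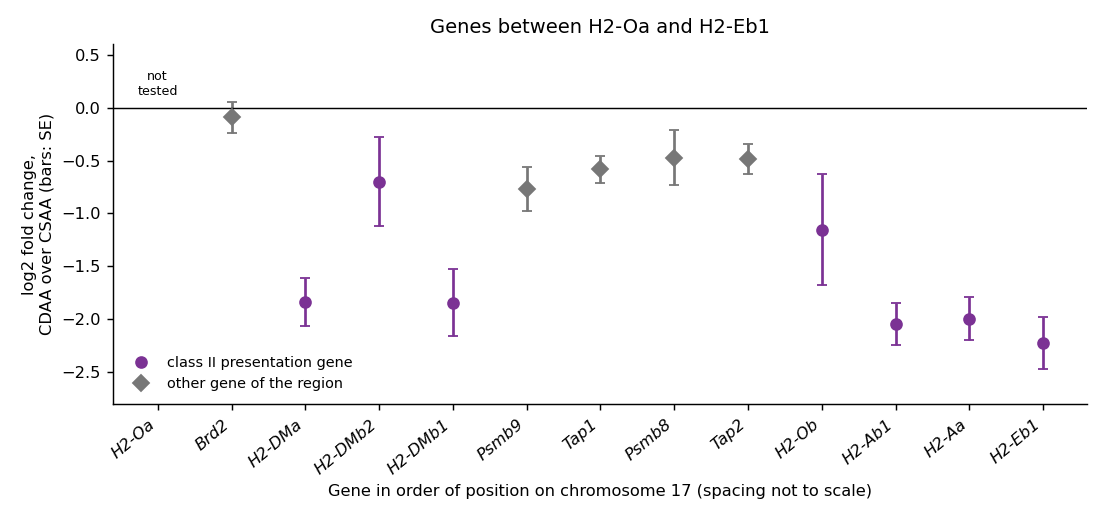
log2 fold change, CDAA over CSAA, with standard errors, of the genes between H2-Oa and H2-Eb1 in their order on chromosome 17. The tested class II genes H2-DMa, H2-DMb1, H2-Ab1, H2-Aa and H2-Eb1 lie at or below -1.83. H2-Ob (-1.15) and H2-DMb2 (-0.70), also class II genes, did not pass. The class I genes of the region lie from -0.77 to -0.47, a range that includes H2-DMb2.

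Since most of these genes moved together, their promoters are shown where RefSeq gives one (GRCm38.p6). Windows of 250 bases before to 50 after the annotated start were matched for 7 of the 10 genes, and those of H2-Ab1, Cd74 and Ciita were not used here. Class II promoters are known for an X box, bound by RFX and CREB, followed by a Y box, an inverted CCAAT sequence bound by NF-Y. The 60 bases around the Y box are given below, 5′ to 3′ in the direction of the gene, with motif matches in capitals. The motif nearest the gene is TGATTGG, the Y box letters. Upstream of it, ATGATGC or, in H2-Aa, the CREB-type motif TGACGTCA is marked.
H2-Aa: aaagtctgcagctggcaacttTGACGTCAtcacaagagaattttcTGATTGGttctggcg
H2-Eb1: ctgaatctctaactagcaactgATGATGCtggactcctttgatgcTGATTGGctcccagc
H2-DMb1: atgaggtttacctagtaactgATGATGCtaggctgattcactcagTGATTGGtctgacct
H2-DMb2: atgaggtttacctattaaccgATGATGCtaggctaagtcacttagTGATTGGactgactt
H2-Ob: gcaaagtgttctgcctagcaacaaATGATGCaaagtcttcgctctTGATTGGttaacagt
H2-Oa: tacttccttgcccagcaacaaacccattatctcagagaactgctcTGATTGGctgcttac
These stretches are chr17:34287859-34287918 (minus strand) for H2-Aa and, on the plus strand, chr17:34305761-34305820 for H2-Eb1, chr17:34153083-34153142 for H2-DMb1, chr17:34145112-34145171 for H2-DMb2, chr17:34238801-34238860 for H2-Ob and chr17:34092289-34092348 for H2-Oa. These positions are on GRCm38.p6 and do not compare with those of the files above.

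The motif letters were chosen after the sequences were seen. TGATTGG was found in 6 of the 7 genes with a window, all but H2-DMa, and in 7.82% of 32851 windows of that length genome-wide, counting both strands and 1 entry per gene name and start. ATGATGC was found in H2-Eb1, H2-DMb1, H2-DMb2 and H2-Ob and in 2.46% of windows. It began 21 to 24 bases before TGATTGG in these 4 genes. Both motifs within 40 bases on 1 strand occurred in 9 entries in all, or 0.0274%, of which 4 were those of these class II genes, and Tmsb15b1 and Tmsb15l among the others share the same window. TGACGTCA was found in H2-Aa and in 1.79% of windows. The match to both motifs was shared by H2-Eb1 and H2-DMb1, which fell, and by H2-DMb2 and H2-Ob, which did not pass. H2-DMb1 and H2-DMb2 were identical at 53 of these 60 bases. A match is a description of letters and does not show binding.

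The class II genes were also set against Ptprc, the pan-leukocyte surface phosphatase CD45, and Csf1r, the macrophage growth factor receptor. Ptprc was at 17.6, 16.7 and 24.3 CPM in CDAA and at 81.7, 63.2 and 70.7 CPM in CSAA (log2 -1.88 ± 0.17, edgeR adjusted p = 0.00123). Csf1r was at 76.4, 83.1 and 107.9 CPM in CDAA and at 176.4, 162.9 and 210.9 CPM in CSAA (log2 -1.04 ± 0.16, edgeR adjusted p = 0.00597). Both fell, with no overlap between the groups.

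Relative to Ptprc, the diets overlapped for 7 of the 9 genes with reads in every library. Since Ptprc itself fell, 88.6% of the 12750 tested genes with reads throughout were higher in every CDAA library on this scale, and 0.714% were lower. H2-Ab1 per Ptprc was 12.6, 11.4 and 13.6 in CDAA and 12.8, 17.3 and 13.1 in CSAA, a log2 difference of -0.19. Cd74 per Ptprc was 32.9, 31.2 and 39.1 in CDAA and 33.9, 45.5 and 34.6 in CSAA. The exceptions lay on opposite sides. Ciita per Ptprc was 0.258, 0.376 and 0.399 in CDAA and 0.437, 0.474 and 0.427 in CSAA, lower in every CDAA library. H2-DMb2 per Ptprc was 0.771, 0.559 and 1.10 in CDAA and 0.372, 0.398 and 0.359 in CSAA, higher in every CDAA library.

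Relative to Csf1r, the diets did not overlap for 7 of the 9 genes, all lower in CDAA. Of the 12750 genes with reads throughout, 3.44% were lower in every CDAA library on this scale and 72.6% higher. H2-Ab1 per Csf1r was 0.913, 0.723 and 0.965 in CDAA and 1.86, 2.11 and 1.39 in CSAA, a log2 difference of -1.03. Ciita per Csf1r was 0.0187, 0.0237 and 0.0283 in CDAA and 0.0637, 0.0581 and 0.0451 in CSAA, a log2 difference of -1.24. The overlapping genes were H2-DMb2 and H2-Ob. No test was made on the ratios to Ptprc and Csf1r.

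**Figure D4:**
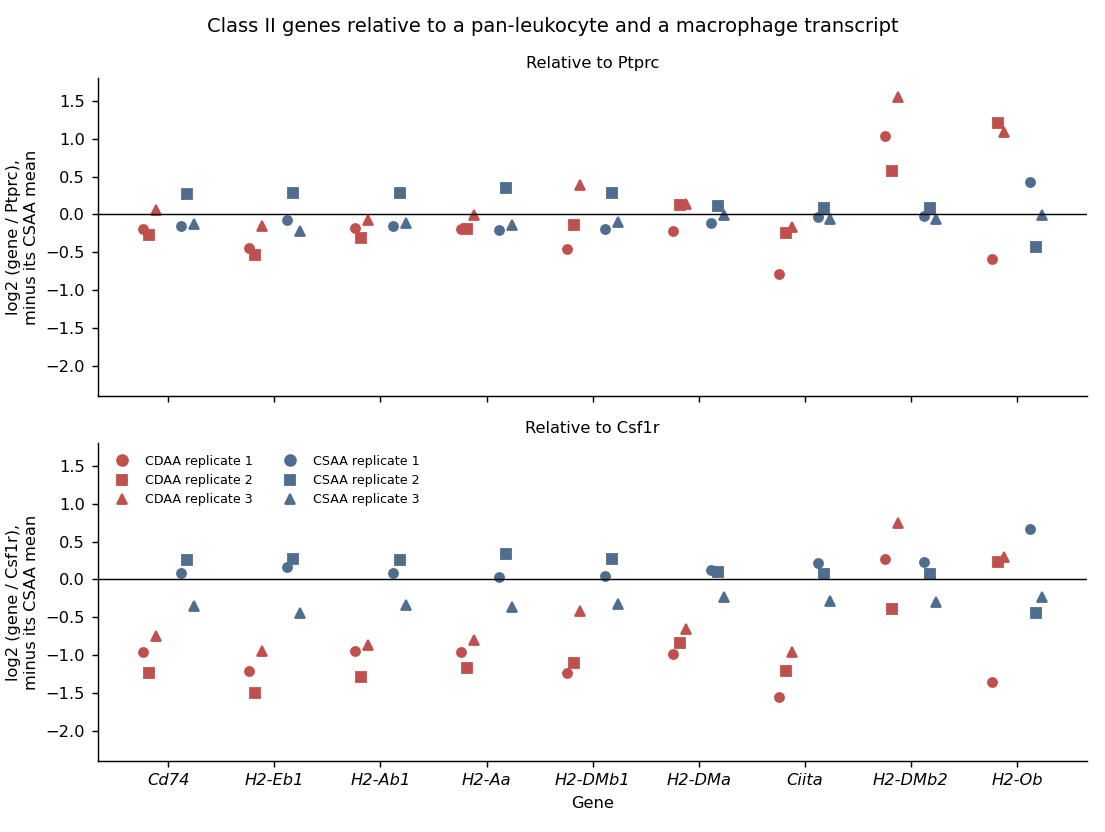
log2 of the deposited FPKM of each class II gene over that of Ptprc (upper panel) or Csf1r (lower panel) in each library, less the CSAA mean, CDAA in red and CSAA in blue. Relative to Ptprc the diets overlap for 7 of 9 genes, and relative to Csf1r they overlap for H2-DMb2 and H2-Ob only.

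Markers of some of the cells that carry class II also fell, among them most of the monocyte and macrophage and dendritic cell lists. Most B cell markers, which had few reads, did not pass. The part of these cells in the result was not tested. For scale, 10.5% of all genes tested were called lower in CDAA. Of 10 monocyte and macrophage markers 8 fell and 2 did not pass. Their summed level was 223.7 to 266.2 CPM in CDAA and 593.9 to 906.0 CPM in CSAA. Of 10 dendritic cell markers 6 fell and 4 did not pass, with summed levels of 19.8 to 22.1 CPM in CDAA and 55.9 to 89.1 CPM in CSAA. Dendritic cell genes that passed include Flt3, the receptor for their growth factor, and Clec9a and Xcr1, receptors of the cross-presenting subset. In CDAA Flt3 had 5, 6 and 16 reads and Xcr1 4, 9 and 8, so the sizes of their changes are uncertain. The Xcr1 call was near the threshold (edgeR adjusted p = 0.0403). Zbtb46, a transcription factor of the dendritic lineage that endothelium also expresses, did not pass (log2 -0.22). Batf3 (log2 -0.85), Clec10a (log2 -0.49) and Cd209a (log2 -0.11) of this list did not pass either. Itgax stands in this list and in that of lipid-associated macrophages, of whose 8 genes 6 fell, with summed levels of 78.8 to 146.9 CPM in CDAA and 258.4 to 777.6 CPM in CSAA.

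Of 9 B cell markers tested, Ms4a1, which encodes CD20, fell (log2 -1.80, edgeR adjusted p = 0.0393) and 8 did not pass, among them Cd79a (log2 -0.77). The Ms4a1 call rests on 8, 13 and 5 reads in CDAA. The median log2 fold change of the 9 was -0.73, and 0 rose. In 5 of the 10 listed genes every CDAA library was below every CSAA library, a pattern seen in 20.4% of all genes tested. With so few reads, a missed threshold does not show that B cell markers were unchanged. The summed level over the 10 genes was 8.90 to 12.6 CPM in CDAA and 14.3 to 21.1 CPM in CSAA. Of 5 plasma cell genes 3 were tested and 0 passed, and Tnfrsf17 was at 0 in every library. The summed levels were 7.62 to 14.1 CPM in CDAA and 12.2 to 14.6 CPM in CSAA. The overlap rests on CDAA replicate 1 (14.1 CPM), the library with high pancreatic acinar genes, where Derl3 of this list was higher than in any other library. CDAA replicates 2 and 3, at 7.62 and 7.81 CPM, lay below every CSAA library. The source of the Derl3 reads was not tested.

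Of 8 Kupffer cell markers 5 fell, the complement genes C1qa, C1qb and C1qc with Cd5l and Marco, while Clec4f, Timd4 and Vsig4 did not pass. The list summed to 388.6 to 515.9 CPM in CDAA and 774.5 to 1168 CPM in CSAA. Clec4f, a lectin used to mark Kupffer cells, was at 127.3, 133.0 and 158.0 CPM in CDAA and at 144.3, 130.4 and 252.8 CPM in CSAA (log2 -0.33, edgeR adjusted p = 0.397). Of 10 T cell markers 7 fell, with sums of 6.46 to 8.96 CPM in CDAA and 27.8 to 38.5 CPM in CSAA. Of 6 sinusoidal endothelial markers 2 fell (326.1 to 359.0 CPM in CDAA and 410.0 to 440.7 CPM in CSAA). Of 7 stellate cell genes 4 fell (453.3 to 667.3 CPM in CDAA and 991.1 to 1233 CPM in CSAA). Of 9 hepatocyte genes 1 rose, Cps1, and the median log2 fold change was 0.45.

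Genes that prepare the invariant chain and peptides fell in part. Of 9 such genes 5 fell, 0 rose and 4 did not pass, with a median log2 fold change of -0.75. Ctss, cathepsin S, the protease that completes invariant chain cleavage in dendritic cells and B cells, was at 33.8, 34.2 and 48.0 CPM in CDAA and at 241.3, 133.7 and 150.0 CPM in CSAA (log2 -2.18 ± 0.25, edgeR adjusted p = 0.00203). Ifi30, the thiol reductase GILT of endosomes, had a log2 value of -1.33 ± 0.15 (edgeR adjusted p = 0.00219). Ctsb, Ctsd and Lgmn also passed, while Ctsl, Ctsh, Ctsz and Sppl2a, the protease that clears the invariant chain stub, did not.

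Factors that act on class II promoters were set beside Ciita. Of 12 genes listed for class II promoters and the control of CIITA, 3 fell, 0 rose and 9 did not pass, with a median log2 fold change of -0.40. None of Rfx5, Rfxap, Rfxank, Nfya, Nfyb, Nfyc and Creb1, which encode the DNA-binding factors, passed, and their log2 fold changes ran from -0.45 for Nfya to 0.45 for Rfxank. The genes that fell encode factors of myeloid and lymphoid cells. Spi1, which encodes PU.1, was at 5.40, 5.85 and 6.53 CPM in CDAA and at 25.9, 20.8 and 26.4 CPM in CSAA (log2 -2.04 ± 0.16, edgeR adjusted p = 0.00121). Irf8 had a log2 value of -1.83 ± 0.16 (edgeR adjusted p = 0.00121), and Prdm1, which encodes a repressor of Ciita in plasma cells, one of -1.85 (edgeR adjusted p = 0.0164). Pax5, a B cell factor that stands in 2 lists, did not pass.

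Of 9 genes of the interferon gamma pathway, the main inducer of Ciita outside professional presenting cells, 8 were tested, 5 fell and 0 rose, with a median log2 fold change of -0.61. Irf1, an interferon-induced factor acting on a Ciita promoter, was at 14.2, 14.9 and 17.8 CPM in CDAA and at 37.6, 29.4 and 33.8 CPM in CSAA (log2 -1.11 ± 0.14, edgeR adjusted p = 0.00293). The receptor chain gene Ifngr2 had a log2 value of -0.72 ± 0.16 (edgeR adjusted p = 0.0203). That call was lost when any library other than CDAA replicate 3 or CSAA replicate 2 was left out. Ifngr1 and Jak2 also passed. Ifng, the cytokine gene, was too low to be tested, with reads in CSAA replicate 3 alone.

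Genes of class II turnover come next. Marchf1, which encodes the ligase that ubiquitinates class II in dendritic cells and B cells, had a log2 value of -1.29 ± 0.30 (edgeR adjusted p = 0.0261). That call was lost when CDAA replicate 2 or any single CSAA library was left out, or with the replicate number as a block. Cd83, which opposes MARCH1, was at 3.80, 4.07 and 3.76 CPM in CDAA and at 10.4, 9.27 and 10.3 CPM in CSAA (log2 -1.36 ± 0.17, edgeR adjusted p = 0.00297). Marchf8, a broadly expressed relative, did not pass, so 2 of 3 genes of turnover fell. Of 10 genes of recognition and costimulation 8 were tested, 4 fell, 0 rose, and the median log2 fold change was -1.11. Cd40, a receptor through which helper T cells activate presenting cells, was at 0.0760, 0.592 and 0.497 CPM in CDAA and at 3.73, 2.77 and 4.03 CPM in CSAA (log2 -3.14 ± 0.53, edgeR adjusted p = 0.00873). The CDAA values of Cd40 rest on 1, 8 and 7 reads, the first below the 3-read level of 0.228 CPM, so the size of its change is uncertain. Cd3e, a T cell receptor subunit, had a log2 value of -2.45 ± 0.44 (edgeR adjusted p = 0.0108). Cd86 and Icosl also passed, and Cd4, the co-receptor for class II, did not (log2 0.06 ± 0.62, edgeR adjusted p = 0.963). Cd4 had 35, 44 and 7 reads in CDAA and 39, 24 and 48 reads in CSAA, so its change is poorly determined.

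The invariant chain is also a surface receptor for the cytokine MIF. Of 5 genes of that system 4 were tested, 2 fell and 0 rose, with a median log2 fold change of -0.87. Cd44, the signalling partner of the invariant chain, was at 13.3, 10.4 and 16.4 CPM in CDAA and at 48.8, 33.2 and 47.8 CPM in CSAA (log2 -1.69 ± 0.21, edgeR adjusted p = 0.00263). Cxcr4, a chemokine receptor that also responds to MIF, had a log2 value of -1.76 ± 0.31 (edgeR adjusted p = 0.00986). Mif itself (log2 -0.04) and its relative Ddt (log2 0.86, edgeR adjusted p = 0.0858) did not pass.

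**Figure D5:**
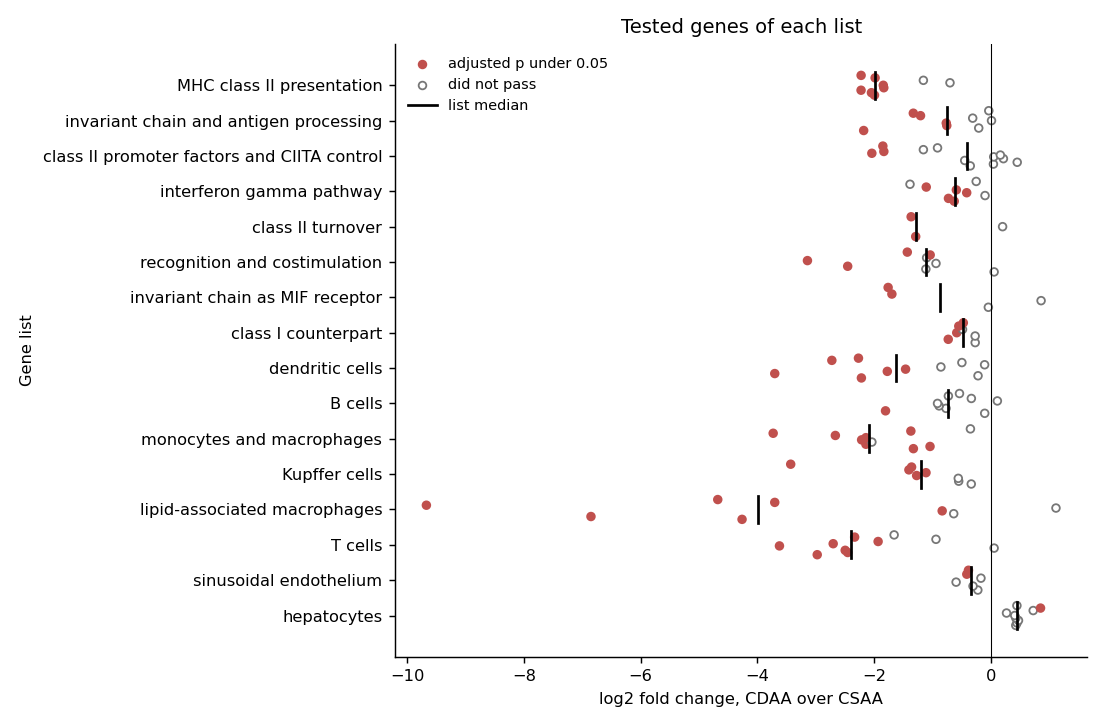
log2 fold change, CDAA over CSAA, of the tested genes of each list, 1 point per gene, filled red where the adjusted p was under 0.05 and open otherwise, with the list median as a black line. The class II presentation genes have a median of -1.98, the class I genes one of -0.48, the monocyte and macrophage markers one of -2.09 and the hepatocyte markers one of 0.45.

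Among themselves most of these genes, though not H2-Ob, also varied together across mice. Over the 6 libraries, with log2 CPM centred within each diet, each of H2-Aa, H2-Ab1, H2-Eb1 and Cd74 correlated with the mean of the other 3 with a Pearson r of 0.980 to 0.996. H2-DMb1 and H2-DMb2 had an r of 0.928 and 0.929 with the mean of all 4, H2-DMa one of 0.820, Ciita one of 0.770 and H2-Ob one of 0.393. These are descriptions over 6 points that share library size and normalisation, and CDAA replicate 3 is the high point of its diet in all of them.

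The genes outside the 10 whose pattern was most like that mean were picked from 8330 with an average of at least 10 CPM. Without centring they were Tmpo (r 0.996), Ikzf1 (0.995), Pik3cd (0.995), Gbp2 (0.994), Oasl2 (0.994), Tgm2 (0.994), Ifi207 (0.993) and Elmo2 (0.992), and all 8 fell, a direction that the choice by likeness to genes that fell had fixed. Tmpo was lost when any library other than CDAA replicate 3 was left out, or with the replicate number as a block, and Elmo2 was lost without CSAA replicate 1. Ikzf1, the lymphoid transcription factor Ikaros, fell by 1.62 on the log2 scale, Pik3cd, the leukocyte PI3 kinase subunit, by 1.72, and Gbp2, an interferon-induced GTPase, by 2.09. With centring they were Mib1 (r 0.998), Aig1 (0.996), Cct5 (0.995), Zfp652 (0.995), Atf4 (0.995), Cul3 (0.995), Dennd5a (0.995) and Megf9 (0.994), of which only Dennd5a passed the diet comparison (log2 -0.39, edgeR adjusted p = 0.0387). No gene was on both of these lists.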

How the data were processed

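Liver RNA of 6 mice was analysed, 3 per diet, grouped by the labels. Per the file headers, the deposited files give whole-number read counts per gene, not normalised by the authors, and FPKM, which equalled the count scaled by listed length and library total within a relative tolerance of 0.001. HTSeq 0.9.1, HISAT2 2.0.5, DESeq 1.30.0 and cutadapt 1.15 are listed, with builds mm9 and mm10, per the submitters' processing notes. The strand setting, the handling of multi-mapping reads and the build behind the counts: not given in the sources used here.

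For the test of counts, edgeR 4.0.16 was run under R 4.3.3 (filterByExpr, TMM, glmQLFit, glmQLFTest, no covariate), CDAA against CSAA, with Benjamini-Hochberg adjustment over 12845 genes. The threshold was an adjusted p of 0.05. The SE is the size of the log2 fold change over the square root of F. Without TMM factors the median of all genes moved by -0.28. The function was also run on simulated counts with known changes, and the outcome is not given here. The class II genes and the lists were chosen with earlier results of these data known. Named genes are the 10 genes, the 2 smallest adjusted p of each pathway or position list in the direction more members had, Ptprc, Csf1r and the 8 most alike genes on each scale. Any other gene was named after its values were seen. Alternatives were RLE and upper-quartile factors, library size only, other filters, DESeq2 1.42.0, limma 3.58.1 on log2(FPKM + 1), a replicate block and leaving out each library.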

Additional observations from a re-analysis of the deposited data

How the results depend on the processing

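All 7 class II genes that passed did so in each of 14 alternative fits, with an adjusted p of at most 0.0424, and H2-Ob and H2-DMb2 passed in none. No class II gene was called higher in any fit. The count over all genes moved more. Scaled by library size alone, 137 genes were higher in CDAA and 2756 lower, and with limma on log2(FPKM + 1), which also lacks TMM factors, 113 and 2643, against 546 and 1355 as reported. DESeq2 called 1088 higher. Leaving out 1 library at a time gave 76 to 688 genes higher and 568 to 1456 lower, both lowest without CSAA replicate 1 and both highest without CDAA replicate 3, and 7 to 7 class II genes lower and 0 to 0 higher. The cause of these shifts was not tested. With the replicate number as a block 293 genes were higher and the same 7 class II genes passed. Deviations of same-numbered libraries correlated at 0.0680, 0.124 and -0.0628, and CDAA replicate 3 correlated best with another number, so the numbers were not treated as pairing. With 1 library left out, the log2 fold changes of the 7 lay between -2.56 and -1.60. Of the ratios between genes, all 168 values without 1 library stayed within the spread between replicates. With 3 libraries per diet, leaving 1 out cannot shift a difference of means by that spread, so this check does not show stability. The ratios between partner genes were added after the data were seen. The low reads of H2-Oa, H2-Ob and H2-DMb2 limit what can be said of them.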
